A study of Mus musculus with 27 samples.

Results

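The 10 genes described here are Foxo1, Foxo3, Foxp1, Klf2, Btg1, Btg2, Tob1, Tsc22d3, Txnip and Pik3ip1, all known for high expression in resting lymphocytes and for restraint of growth or division. They were chosen by name from the 35604 genes of the abundance table, and all 10 passed the filter on low values that left 12147 genes for testing. The question was which of them were lost when naive B cells were stimulated, and which of the lost were regained with IL-21. Polyadenylated RNA was measured in primary splenic B cells of wild-type mice. The 9 groups of 3 libraries were naive cells and cells cultured for 6 h or 24 h with anti-CD40 antibody (clone HM40-3, 1 µg/mL) alone, with IL-4 (12.5 ng/mL), with IL-21 (50 ng/mL), or with both cytokines. Every cultured group thus received anti-CD40, and there was no cultured group without it, so culture and CD40 stimulation cannot be told apart in a comparison with naive cells. The labels do not say whether replicates came from separate mice or cultures, so the p-values measure the spread between these libraries only, which may be technical.

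Quiescence in lymphocytes is an actively kept state. FOXO transcription factors sit in the nucleus while PI3K and AKT signalling is low and drive genes for cell-cycle arrest, survival and recirculation, and KLF2 is a factor downstream of FOXO1 that keeps S1pr1, the receptor for exit from lymphoid organs, expressed. BTG and TOB proteins recruit the deadenylase that shortens mRNA tails, TXNIP inhibits thioredoxin and glucose uptake, GILZ, the product of Tsc22d3, is a glucocorticoid-induced restraint of inflammatory signalling, and PIK3IP1 is a membrane inhibitor of PI3K. CD40 on B cells, bound in vivo by its ligand on helper T cells, activates NF-κB and PI3K, and IL-4 and IL-21 are helper T cell cytokines that signal mainly through STAT6 and STAT3.

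Levels are in TPM (transcript abundance scaled to transcript length and to all other RNA in a library). They keep no sequencing depth, so the depth is unknown, and in bulk RNA fewer cells expressing a gene and less RNA per cell cannot be told apart. Differences are on the log2(TPM + 1) scale, which understates the change of low genes such as Pik3ip1 and Tsc22d3, and are given as the estimate ± SE with the adjusted p of limma over all 12147 genes. A gene was called higher or lower when that p was under 0.05. Values of 3 libraries are listed as replicates 1, 2 and 3. Of 8 B cell markers all were detected in every group, with a summed level of 3379 to 5090 TPM in naive cells and 462 to 4377 TPM in cultures. Mitochondrial transcripts took 5.5% of naive replicate 1 against 12.71% and 13.54% of the other 2, and 7.89% of replicate 1 at 24 h with anti-CD40 plus IL-4 against 11.63% and 10.97%. Naive replicate 1 had the highest level of 9 of the 10 genes among naive libraries, and replicate 1 at 24 h with anti-CD40 plus IL-4 had the highest level of all 10 in its group. Changes of a call without these libraries are given for some of the 10 genes, and for others only as counts.

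The promoters of 4 of the genes are shown, chosen by the size of their change at 24 h. Klf2 and Pik3ip1 were the most raised when IL-21 was added to anti-CD40 and IL-4, and Btg1 and Txnip fell most when IL-21 was added to anti-CD40. Klf2 and Pik3ip1 did not move together throughout: with IL-21 added to anti-CD40 at 24 h they differed by 0.82 and -0.21 on the log2 scale, neither called. Each window runs from 250 bases before to 50 bases after the RefSeq start on the plus strand of GRCm38.p6, 5′ to 3′. Capitals mark the CACCC-box letters of KLF factors (CCACCC or its reverse complement) in the sequences of Klf2 and Pik3ip1, and the FOXO element (GTAAACA or its reverse complement) in those of Btg1 and Txnip. The windows are chr8:72318812-72319111 for Klf2, chr11:3330481-3330780 for Pik3ip1, chr10:96616751-96617050 for Btg1 and chr3:96557707-96558006 for Txnip.
Klf2: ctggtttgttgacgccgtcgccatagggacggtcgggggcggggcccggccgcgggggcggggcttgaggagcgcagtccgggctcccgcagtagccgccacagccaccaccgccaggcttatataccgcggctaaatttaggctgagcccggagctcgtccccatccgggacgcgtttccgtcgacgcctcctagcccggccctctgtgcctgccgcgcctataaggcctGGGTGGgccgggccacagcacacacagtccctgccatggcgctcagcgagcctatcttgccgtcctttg
Pik3ip1: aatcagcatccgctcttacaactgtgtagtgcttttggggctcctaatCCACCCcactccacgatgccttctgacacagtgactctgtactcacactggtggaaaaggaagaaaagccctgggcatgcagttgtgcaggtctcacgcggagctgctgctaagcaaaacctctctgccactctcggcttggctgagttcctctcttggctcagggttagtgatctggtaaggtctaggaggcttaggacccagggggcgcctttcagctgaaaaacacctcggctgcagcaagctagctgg
Btg1: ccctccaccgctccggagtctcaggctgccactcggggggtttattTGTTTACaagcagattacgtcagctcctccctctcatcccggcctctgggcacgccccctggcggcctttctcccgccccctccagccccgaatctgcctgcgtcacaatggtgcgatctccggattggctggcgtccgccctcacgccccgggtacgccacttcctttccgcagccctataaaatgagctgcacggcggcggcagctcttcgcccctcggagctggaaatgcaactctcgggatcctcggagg
Txnip: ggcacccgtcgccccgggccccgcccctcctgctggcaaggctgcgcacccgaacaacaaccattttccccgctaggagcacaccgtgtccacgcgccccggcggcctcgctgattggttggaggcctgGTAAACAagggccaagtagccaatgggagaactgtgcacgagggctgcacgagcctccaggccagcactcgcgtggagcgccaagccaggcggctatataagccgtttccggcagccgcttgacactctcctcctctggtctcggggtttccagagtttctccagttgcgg
All 10 genes matched a RefSeq promoter, with 14 windows in all. On both strands, GTAAACA was found in windows of Btg1 and Txnip, beginning 204 and 121 bases before the start, and in 3.65% of the 32851 mouse windows. CCACCC was found in windows of Klf2, Pik3ip1, Foxp1, Tob1 and Tsc22d3, and in 31.5% of all windows. The STAT letters TTCNNNGAA were found in a Tsc22d3 window and in 8.3% of all windows, and the E-box CACGTG in no window of the 10 genes and in 7.15% of all windows. In the 4 windows shown, no motif searched overlapped another. A match describes letters and not a bound site.

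Most of the 10 genes were lower than in naive cells after 6 h of culture with anti-CD40. At 6 h 8 of 10 were called lower and none higher, against 13.3% and 16.6% of all tested genes, and the median difference of the 10 was -1.24 on the log2 scale against 0.06 for all genes. At 24 h 7 of 10 were called lower against 7.85% of all genes, with a median of -1.10 against 0.25. Of all calls 55.5% at 6 h and 70.7% at 24 h were higher, and 45.1% and 44.9% after median-of-ratios rescaling, which divides each library by its median ratio to a common reference; the same genes of the 10 stayed called lower, among 10 and 9 in all. Tsc22d3, Klf2 and Pik3ip1 led at both times. Of 8 B cell markers 6 were called lower and 0 higher at 6 h, with a median of -1.4 on the log2 scale. At 24 h 1 of them was called lower and 0 higher, with a median of 0.11. Erythroid and most tested macrophage markers fell in the same comparisons. The summed level of 7 macrophage and monocyte markers was 67.8 to 98.3 TPM in naive libraries and 1.34 to 11.6 TPM in cultures; of the 5 tested, 3 were called lower at each time, and Adgre1 was called higher at 24 h, by 0.89 ± 0.28 (adjusted p = 0.0204), from a mean of 0.233 to 1.42 TPM. The summed level of 7 erythroid and platelet markers, all 7 called lower at both times, was 816 to 1589 TPM against 9.72 to 198 TPM. No macrophage or erythroid marker was at 0 in every naive library, and the part of these cells in the losses was not tested.

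Klf2, on chromosome 8, was the most abundant of the transcription factors in naive cells, at 764, 419 and 401 TPM. With anti-CD40 alone it was at 34.9, 26.7 and 31.9 TPM at 6 h and at 23.8, 22.5 and 27.2 TPM at 24 h, 5.9% and 4.64% of the naive mean. No stimulated library reached the lowest naive one. The log2 difference from naive was -3.98 ± 0.32 at 6 h (adjusted p = 2.46e-09) and -4.31 ± 0.32 at 24 h (adjusted p = 1.29e-09). Klf2 stayed called lower than naive in all 8 stimulated groups. The other 3 stimulations at 6 h each had 8 of the 10 called lower than naive, where 17.4% (with IL-4), 17.7% (with IL-21) and 18.9% (with both) of all genes were.

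The FOX factors differed less from naive cells. Foxo1, the main FOXO factor of B cells, was at 40.0, 32.6 and 27.1 TPM in naive cells, 13.9, 14.2 and 19.8 TPM after 6 h of anti-CD40 and 16.6, 16 and 24.0 TPM after 24 h. Naive and anti-CD40 libraries did not overlap at either time. Foxo1 fell by 1.01 ± 0.30 on the log2 scale at 6 h (adjusted p = 0.0131), but without naive replicate 1 or without anti-CD40 replicate 1 this adjusted p passed 0.05, with 0.0563 the highest over all libraries left out in turn. At 24 h the difference of -0.79 ± 0.30 was not called (adjusted p = 0.0568). Foxo3, a second FOXO factor at 8.05 to 13.5 TPM in naive cells, and Foxp1, a forkhead repressor at 126 to 165 TPM, were not called at either time with anti-CD40 alone. Foxp1 lay just above the threshold at 6 h, at -0.84 ± 0.32 (adjusted p = 0.0503). At 24 h Foxp1 was called lower without replicate 1 of the group with anti-CD40 plus IL-4.

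Among the antiproliferative BTG and TOB genes, Btg1 was as abundant in naive cells as Klf2, at 710, 465 and 436 TPM, and stood at 212, 175 and 258 TPM after 24 h of anti-CD40, which did not overlap. It fell by 1.30 ± 0.27 on the log2 scale at 24 h (adjusted p = 0.00121). Its smaller change at 6 h, -0.78 ± 0.27 (adjusted p = 0.0357), was no longer called without naive replicate 1 or without any 1 of the anti-CD40 libraries. Btg2, a p53-inducible relative, fell by 1.15 ± 0.27 at 6 h (adjusted p = 0.00201), and its 24 h difference of -0.78 ± 0.27 (adjusted p = 0.0341) was not called without naive replicate 1 or 2 or without anti-CD40 replicate 1 or 2. Tob1 fell at both times, by 1.32 ± 0.23 and 0.89 ± 0.23.

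The 3 remaining genes restrain signalling or metabolism. Tsc22d3 was at 90.5, 63.3 and 83.9 TPM in naive libraries and between 0.182 and 4.79 TPM in all 24 stimulated ones, the deepest loss of the 10 as a share of naive. Txnip was at 115, 64.8 and 67.3 TPM in naive cells and at 27.2, 24.4 and 33.7 TPM after 24 h of anti-CD40, with no overlap. Pik3ip1 was low and variable in naive cells, at 26.6, 6.93 and 8.92 TPM, and at 1.94, 0.596 and 0.448 TPM after 6 h of anti-CD40. By 24 h Pik3ip1 stood at 3.01, 4.22 and 3.56 TPM, and it was the only gene of the 10 called higher at 24 h than at 6 h with anti-CD40 alone, by 1.27 ± 0.36 on the log2 scale (adjusted p = 0.0121; 16.1% of all genes were called higher). Without anti-CD40 replicate 2 or 3 at 6 h that call was lost, with an adjusted p of up to 0.0643.

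**Figure D1:**
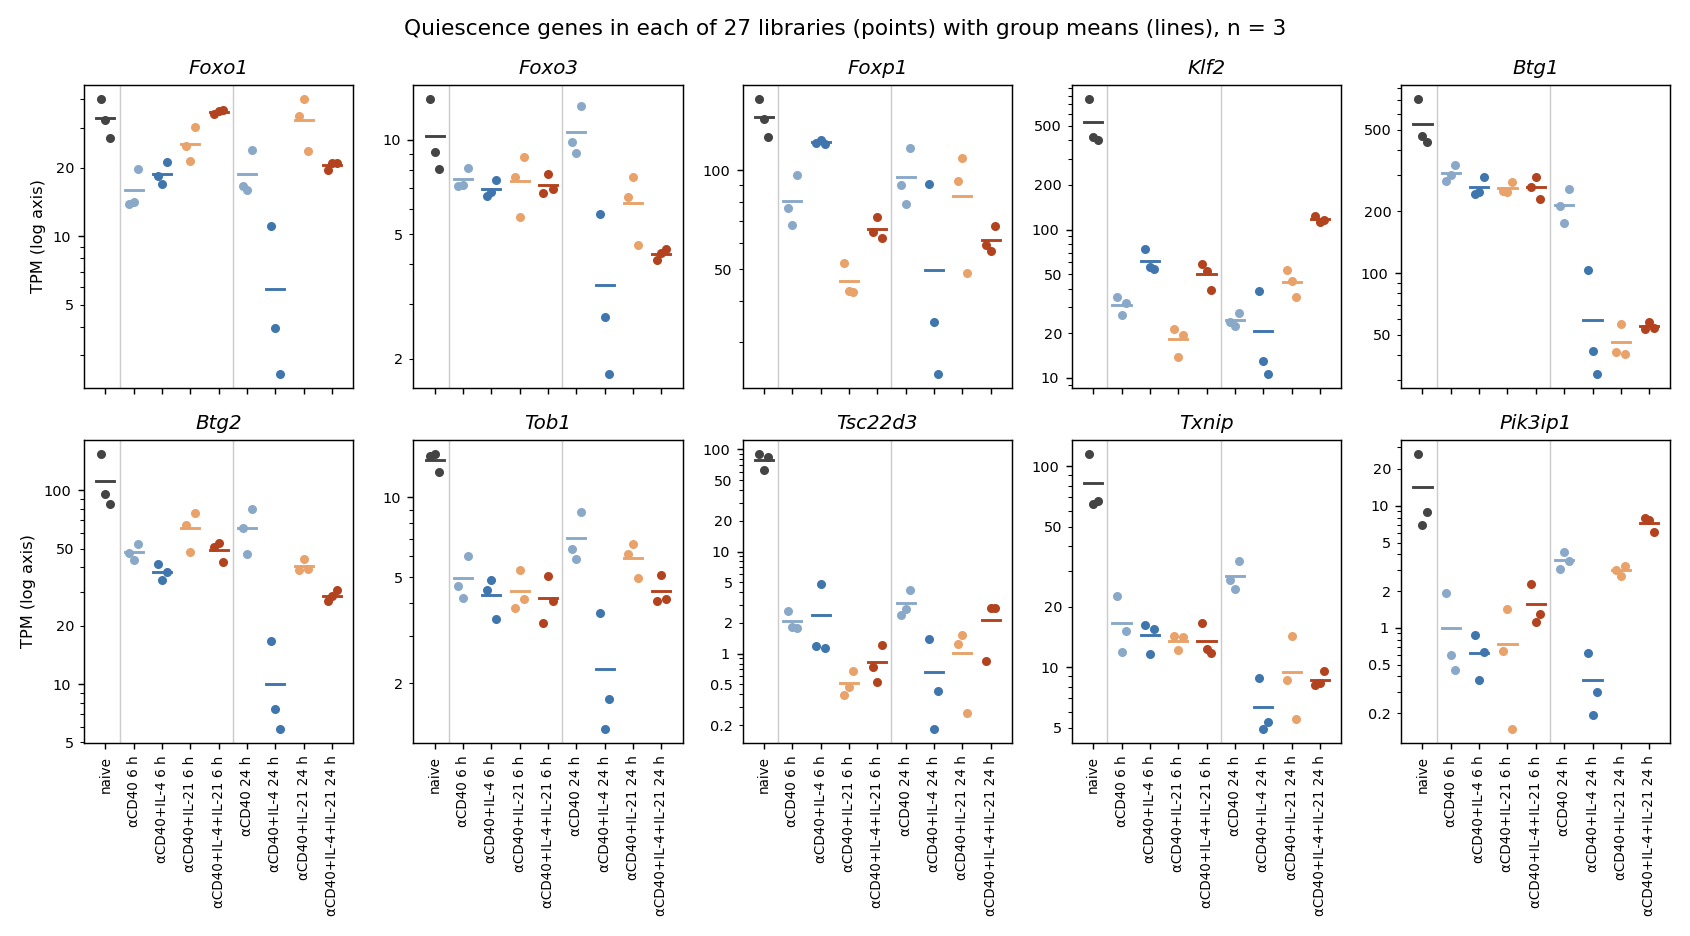
TPM on a log axis for each of the 10 genes in every library, with 3 points and a mean line per group; grey lines divide naive, 6 h and 24 h groups. Klf2 falls from 401 TPM or more in naive libraries to under 125 TPM in every stimulated one, and the 24 h group with anti-CD40 plus IL-4 has the lowest mean of Foxo1, Btg2 and Pik3ip1.

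IL-4 deepened the loss at 24 h, and at 6 h no further loss was called. With anti-CD40 plus IL-4 at 24 h all 10 genes were called lower than naive, against 22.9% of all genes called lower. Against anti-CD40 alone at 24 h 9 of 10 were called lower, all but Klf2, and 23.1% of all genes were. The median of the 10 was -1.60 on the log2 scale and that of all genes was -0.31, a downward shift of the comparison as a whole. Of all its calls 26.4% were higher, and 54% after rescaling, under which the same 9 genes were called lower. Btg2 fell most, from 64.1, 47.0 and 79.6 TPM with anti-CD40 alone to 16.6, 7.47 and 5.85 TPM with IL-4 added, a log2 difference of -2.65 ± 0.27 (adjusted p = 1.83e-07). Foxo1 stood at 11.1, 3.95 and 2.48 TPM, below every library of anti-CD40 alone, a log2 difference of -1.72 ± 0.30 (adjusted p = 0.000182). Foxo3 fell by 1.47 ± 0.26 (adjusted p = 0.000166), its only loss among the comparisons that add 1 cytokine to anti-CD40. The loss of Foxp1, -1.13 ± 0.32 (adjusted p = 0.0096), was not called without anti-CD40 replicate 3 or without IL-4 replicate 2 or 3, and that of Tsc22d3, -1.34 ± 0.36, was not called without IL-4 replicate 2. B cell markers fell in this comparison as well: 6 of 8 were called lower and 0 higher, with a median of -1.3 on the log2 scale.

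Klf2 did not follow the other 9. With IL-4 at 24 h it was at 38.6, 13 and 10.6 TPM, on both sides of the anti-CD40 libraries, a log2 difference of -0.45 ± 0.32 (adjusted p = 0.305), and -0.99 (adjusted p = 0.00238) without IL-4 replicate 1. At 6 h Klf2 was higher with IL-4 in each library, at 73.5, 56.1 and 54.4 TPM against 34.9, 26.7 and 31.9 TPM. That log2 difference of 0.95 ± 0.32 was not called (adjusted p = 0.127), and no gene of the 10 was called at 6 h with IL-4, where 4.04% of all genes were; at an unadjusted p under 0.05 there was 1, Klf2. With the replicate number as a block, used here because same-numbered libraries deviated together in this comparison, Klf2 was called, with an adjusted p of 0.029.

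IL-21 added to anti-CD40 alone returned none of the lost genes by the rule used, which asks that a gene called lower than naive with anti-CD40 be called higher with IL-21. At 6 h no gene of the 10 was called in either direction by limma, 4 had an unadjusted p under 0.05, and 12.1% of all genes were called. At 24 h none was called higher, where 17.8% of all genes were, and 3 were called lower, where 6.33% of all genes were. Of all calls 73.8% were higher, and 54.8% after rescaling, which called 5 of the 10 lower and none higher. Btg1 fell from 212, 175 and 258 TPM to 41.1, 56.6 and 40.3 TPM, with no overlap, a log2 difference of -2.20 ± 0.27 (adjusted p = 3.35e-06). Txnip fell from 27.2, 24.4 and 33.7 TPM to 8.68, 14.3 and 5.55 TPM, with no overlap, a log2 difference of -1.56 ± 0.28 (adjusted p = 0.000321). Tsc22d3 fell by 1.07 ± 0.36 (adjusted p = 0.0363), a call that was lost without anti-CD40 replicate 2 or 3 or without IL-21 replicate 1 or 3.

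Foxo1 and Klf2 were the 2 genes with higher levels when IL-21 was added to anti-CD40 for 24 h, and neither was called. Foxo1 was at 33.7, 40.3 and 23.7 TPM with IL-21 against 16.6, 16 and 24.0 TPM without, which overlapped by 1 library, a log2 difference of 0.74 ± 0.30 (adjusted p = 0.0767). Its mean was 97.9% of the naive mean, and the difference from naive was -0.04 ± 0.30, which made it the 1 gene of 10 not called lower than naive in that group, where 10.9% of all genes were called lower. Klf2 was at 53.5, 44.8 and 35.2 TPM with IL-21 against 23.8, 22.5 and 27.2 TPM without, with no overlap, a log2 difference of 0.82 ± 0.32 (adjusted p = 0.0669). Leaving out replicate 1 of the anti-CD40 plus IL-4 group at 24 h, which enters these comparisons only through the shared estimate of the spread, brought both under the threshold, with an adjusted p of 0.0083 for Foxo1 and 0.0073 for Klf2, and the loss of Foxo1 with anti-CD40 alone was then called too (adjusted p = 0.00524). Without that library both genes therefore met the rule for regained, among 7 of 10 genes called, 2 higher and 5 lower. Both also met it without replicate 3 of the same group, and without its replicate 1 and naive replicate 1 together. Klf2 met it without naive replicate 1. Klf2 also met it with the replicate number as a block, though the numbers were not taken to pair libraries in this comparison. Over all genes, 20.8% of the 953 lost with anti-CD40 at 24 h met the rule. All genes together were shifted by a median of 0.23, and after median-of-ratios rescaling the differences of Foxo1 and Klf2 were 0.48 and 0.55, neither called, and Foxo1 was then called lower than naive in the group with IL-21, at -0.62 (adjusted p = 0.0126).

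With IL-4 present, IL-21 raised 5 of the 10 genes at 24 h and lowered none, against 21.8% of all genes called higher and 2.39% lower. The median of the 10 was 0.85 on the log2 scale against 0.38 for all genes. Of all calls in this comparison 90.1% were higher, and 46.3% after median-of-ratios rescaling, so differences are best read against the shift of all genes. Klf2 rose from 38.6, 13 and 10.6 TPM to 124, 112 and 116 TPM, a log2 difference of 2.67 ± 0.32 (adjusted p = 2.68e-06). Pik3ip1 rose from 0.619, 0.195 and 0.30 TPM to 7.97, 7.63 and 6.07 TPM, a log2 difference of 2.59 ± 0.36 (adjusted p = 1.81e-05). Neither gene's libraries overlapped between the groups. Foxo1 rose from 11.1, 3.95 and 2.48 TPM to 19.5, 21 and 21 TPM, by 1.86 ± 0.30 (adjusted p = 0.000145), and Btg2 from 16.6, 7.47 and 5.85 TPM to 26.7, 28.6 and 30.4 TPM, by 1.55 ± 0.27 (adjusted p = 0.000285), both with no overlap. Tob1 rose by 0.80 ± 0.23 (adjusted p = 0.0173), a call lost without IL-4 replicate 2 or 3 or without replicate 2 of the group with both cytokines, and lost after rescaling, at 0.39 (adjusted p = 0.119).

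Foxo3, Foxp1, Btg1, Tsc22d3 and Txnip were not called in that comparison. Btg1 libraries given both cytokines, at 53.4, 57.9 and 53.8 TPM, fell within the range of those given IL-4 alone, at 104, 41.9 and 32.2 TPM. Its log2 difference of 0.08 ± 0.27 turned to -0.49 (adjusted p = 0.0238) under median-of-ratios rescaling. Without replicate 1 of the group with anti-CD40 plus IL-4, 9 of 10 genes were called higher, all but Txnip, where 41.2% of all genes were called higher. Foxo3, Foxp1, Btg1 and Tsc22d3 then had log2 differences of 0.72, 1.06, 0.57 and 1.20. Klf2, Pik3ip1, Foxo1 and Btg2 were called higher with each library left out in turn, and after rescaling their differences were 2.11, 2.32, 1.37 and 1.02. Ribosomal protein transcripts took 23.5%, 29.36% and 29.51% of the group with IL-4 and 22.33% to 23.02% of the group with both cytokines. With mitochondrial, ribosomal protein and pseudogene transcripts left out, the median of all genes in this comparison was 0.24 on the log2 scale. Of all calls 77.1% were then higher. The part of the ribosomal protein transcripts by themselves was not tested. At 6 h the addition of IL-21 to anti-CD40 and IL-4 was called for none of the 10 by limma, with 2 at an unadjusted p under 0.05 and 2.54% of all genes called. Foxo1 was 1 of the 2, at 0.88 ± 0.30 (adjusted p = 0.179). It met the rule for regained at 6 h without replicate 1 of the 24 h group with IL-4, where 4.04% of all lost genes did. After rescaling Foxo1 met it too, where 3.52% of all lost genes did.

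By the rule, 4 of the 7 genes lost with anti-CD40 at 24 h were regained with IL-21 when IL-4 was present: Klf2, Pik3ip1, Btg2 and Tob1. The loss in this rule is that with anti-CD40 alone, while the rise is from the level with anti-CD40 and IL-4. Of all 953 genes lost at 24 h, 290 met the same rule, or 30.4%. Over the libraries left out in turn, 3 to 8 of the 10 genes met it, beside 18.6% to 45.5% of all lost genes. The count was 8, all but Foxo3 and Txnip, without replicate 1 of the IL-4 group, where the share was highest. Klf2 and Pik3ip1 met it under all 36 settings run. Btg2 met it under 31 of them, and did not without naive replicate 1 or 2 or anti-CD40 replicate 1 or 2, or with no filter on low values. Tob1 did not without IL-4 replicate 2 or 3 or replicate 2 of both cytokines. Foxo1 met the second condition but its loss with anti-CD40 alone at 24 h was not called. After median-of-ratios rescaling that loss was -1.10 (adjusted p = 0.000176), and the genes regained were Klf2, Pik3ip1, Btg2 and Foxo1, without Tob1. With mitochondrial, ribosomal protein and pseudogene transcripts left out, Klf2, Pik3ip1, Btg2, Tob1 and Foxo1 were regained, as were 25.9% of all lost genes. Against naive cells, the group with both cytokines had 8 of 10 genes called lower at 24 h, against 13.7% of all genes. Foxo1, at 61.6% of the naive mean, and Pik3ip1, at 51.1%, were the 2 not called, with log2 differences of -0.66 ± 0.30 (adjusted p = 0.0811) and -0.66 ± 0.36 (adjusted p = 0.136). After rescaling both were called lower than naive, at -1.06 and -1.03, and without replicate 1 of the 24 h anti-CD40 and IL-4 group Foxo1 was (adjusted p = 0.0107), as was Pik3ip1 without naive replicate 2 (adjusted p = 0.0344). Pik3ip1 overlapped the naive range, and a p above the threshold does not show that it had returned to the naive level. Klf2, although raised, remained at 22.2% of the naive mean and was called lower, by 2.10 ± 0.32 on the log2 scale (adjusted p = 1.35e-05). Btg2 and Tob1 stood at 25.6% and 32.3% of naive, below their 57.0% and 51.1% with anti-CD40 alone at 24 h. For these genes the rule thus marks a rise from the level with IL-4, not a recovery of the loss with anti-CD40 alone.

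**Figure D2:**
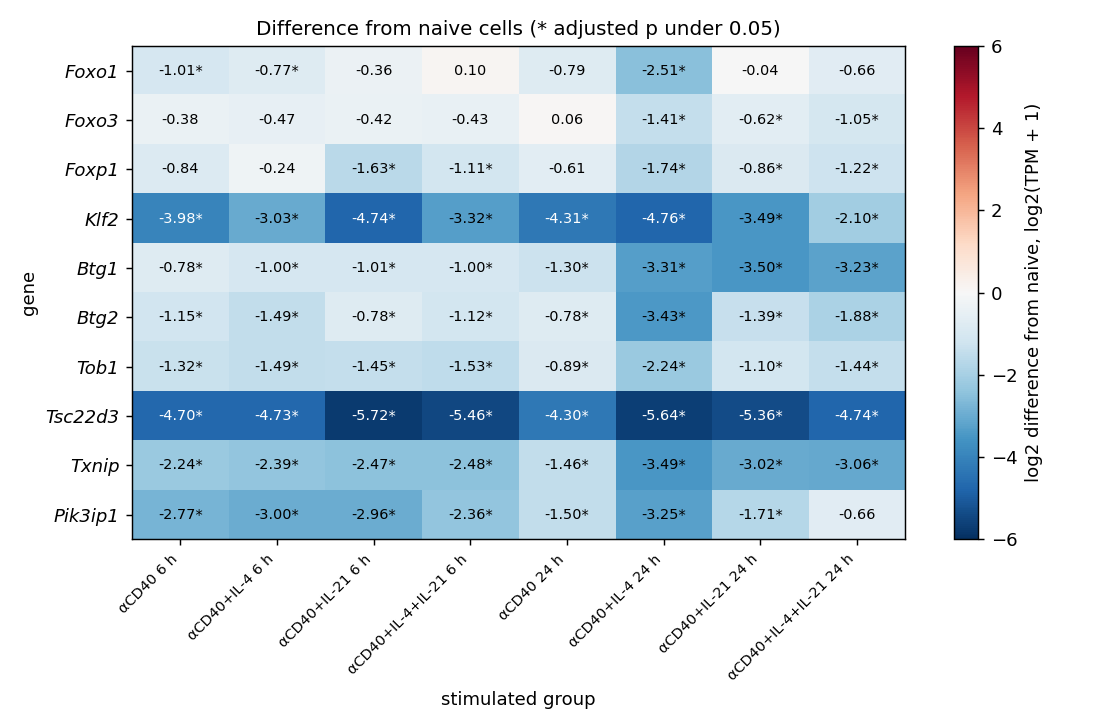
Log2 difference from naive cells on the log2(TPM + 1) scale for each gene (rows) in each stimulated group (columns), with an asterisk where limma's adjusted p is under 0.05. The 24 h column with anti-CD40 plus IL-4 has all 10 genes marked, and Klf2 moves from -4.76 there to -2.10 with IL-21 added.

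A comparison of both cytokines with anti-CD40 alone, added after the data were seen, asked whether IL-21 did more than offset the loss with IL-4. At 24 h only Klf2 was called higher, at 124, 112 and 116 TPM against 23.8, 22.5 and 27.2 TPM, by 2.22 ± 0.32 on the log2 scale (adjusted p = 1.59e-05; 14.5% of all genes were called higher). Btg1, Txnip, Foxo3 and Btg2 were called lower, by 1.93, 1.59, 1.11 and 1.10 on the log2 scale, where 9.6% of all genes were called lower. Pik3ip1 and Foxo1 differed from anti-CD40 alone by 0.84 ± 0.36 (adjusted p = 0.094) and 0.13 ± 0.30 (adjusted p = 0.804). Klf2 was also the only gene of the 10 called between both cytokines and anti-CD40 with IL-21, also compared after the data were seen: it was higher by 1.42 ± 0.32 at 6 h (adjusted p = 0.0094) and 1.40 ± 0.32 at 24 h (adjusted p = 0.0072), where 1.27% and 2.22% of all genes were called higher. At 6 h Klf2 was not called without IL-21 replicate 2 or without replicate 1 of both cytokines. Foxo1 was the only gene called higher with both cytokines than with anti-CD40 alone at 6 h, at 34.4, 35.6 and 36.0 TPM against 13.9, 14.2 and 19.8 TPM, by 1.12 ± 0.30 (adjusted p = 0.0156), where 6.06% of all genes were called higher; without anti-CD40 replicate 1 or 2 the call was lost.

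The dependence of the IL-21 effect on IL-4 was tested directly. At 24 h the interaction was called for 6 of 10 genes, all higher, against 3.33% of all genes called higher (57.3% of all calls, and 43.8% after rescaling): Pik3ip1 at 2.80 ± 0.50, Btg1 at 2.28 ± 0.39, Btg2 at 2.16 ± 0.38, Txnip at 1.99 ± 0.40, Tsc22d3 at 1.97 ± 0.52 and Klf2 at 1.85 ± 0.45. The 6 did not share 1 pattern. Pik3ip1, Btg2 and Klf2 rose with IL-21 when IL-4 was present, whereas Btg1, Txnip and Tsc22d3 fell with IL-21 when IL-4 was absent and were not called when it was present. The interaction of Klf2 was not called without replicate 2 or 3 of the group with anti-CD40 plus IL-4, with an adjusted p of up to 0.0546, and that of Tsc22d3 was called in 21 of the 27 fits with 1 library left out. Without replicate 1 of the same group all 10 genes were called, where 20.2% of all genes were. At 6 h none of the 10 was called, with an adjusted p of 0.926 or more, and 0.412% of all genes were; at an unadjusted p under 0.05 there were 0 of the 10.

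**Figure D3:**
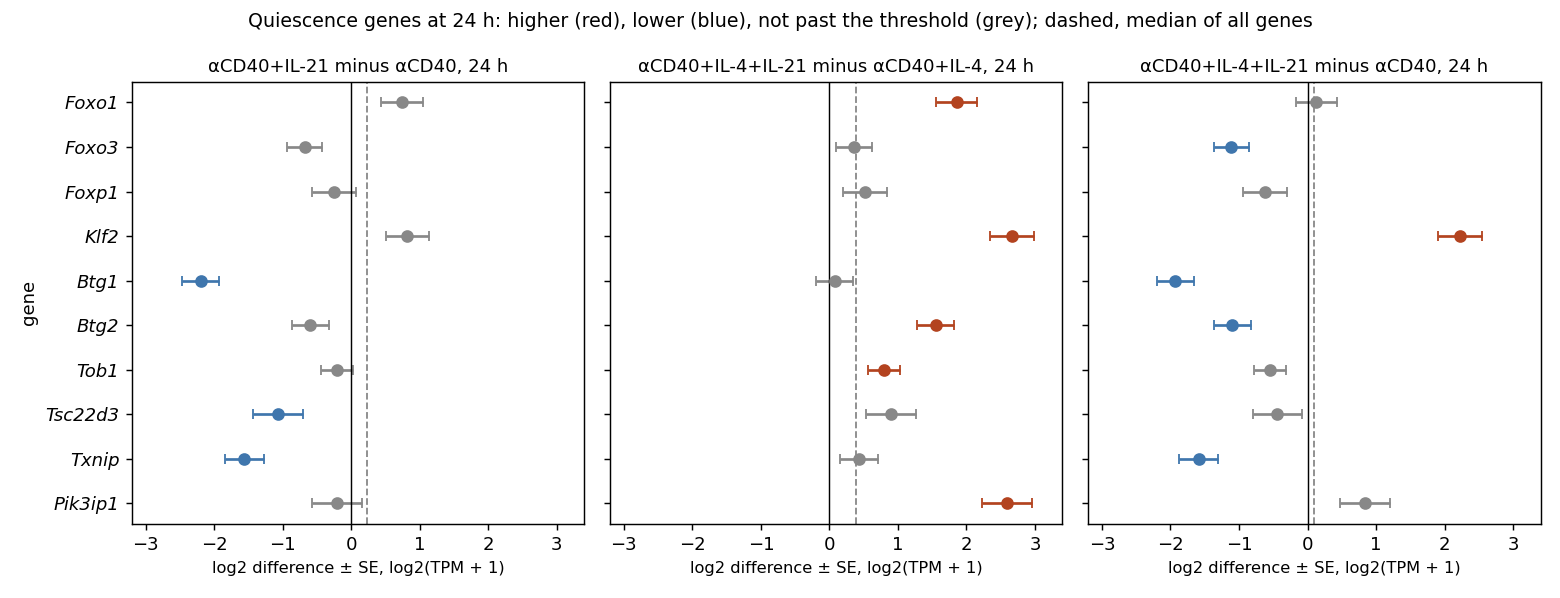
Log2 difference ± SE at 24 h for each gene: IL-21 added to anti-CD40 (left), IL-21 added to anti-CD40 and IL-4 (middle), and both cytokines against anti-CD40 alone (right); dashed lines are the median of all tested genes. Klf2 is at 0.82, 2.67 and 2.22 in the 3 panels, while Btg1 is at -2.20, 0.08 and -1.93.

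The IL-21 effect also differed between times for 3 genes. With anti-CD40, the effect on Btg1 was -0.23 at 6 h and -2.20 at 24 h on the log2 scale, a change of -1.97 ± 0.39 (adjusted p = 0.0032), where 1.34% of all genes were called lower. With anti-CD40 plus IL-4, the effect on Klf2 was -0.29 at 6 h and 2.67 at 24 h, a change of 2.96 ± 0.45 (adjusted p = 0.000274), and that on Pik3ip1 was 0.64 and 2.59, a change of 1.94 ± 0.50 (adjusted p = 0.0282), where 3.66% of all genes were called higher. The change for Klf2 with anti-CD40 alone, 1.58 ± 0.45, lay at the threshold (adjusted p = 0.0491, where 3.1% of all genes were called higher) and was called in 5 of the 27 fits with 1 library left out. That for Pik3ip1 was called in 19 of 27.

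Across all 9 groups the order of levels differed between genes. Naive cells had the highest mean of 8 of the 10, and for 7 of these (Foxp1, Klf2, Btg1, Btg2, Tob1, Tsc22d3 and Txnip) no other library reached the naive range. For Foxo1 the group with both cytokines at 6 h, naive cells and the group with anti-CD40 and IL-21 at 24 h had means of 35.3, 33.3 and 32.6 TPM and overlapped. For Foxo3 anti-CD40 at 24 h and naive cells were highest, at 10.6 and 10.2 TPM, and overlapped. The lowest mean was in anti-CD40 with IL-4 at 24 h for Foxo1, Foxo3, Btg2, Tob1, Txnip and Pik3ip1, and in a group with IL-21 and anti-CD40 for Klf2, Foxp1, Btg1 and Tsc22d3. Pearson's r between log2 group means of 2 of the genes, given as a description over 9 groups whose libraries share a normalization, ranged from 0.061 to 0.927 over 45 pairs, with a median of 0.65. Foxo3 and Btg2 were the most alike (0.927), and Btg1 and Pik3ip1 the least (0.061). Over the 8 stimulated groups the median fell to 0.455 and the range was -0.404 to 0.941.

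Among other protein-coding genes with a mean of at least 5 TPM, those most like each of the 10 over the 9 group means were found by the same r. Tsc22d2 was closest to Foxo1 (0.991), Nrros to Klf2 (0.957), Hist3h2a to Txnip (0.99), Tk2 to Tob1 (0.987), Spin1 to Btg2 (0.978), Hist1h1c to Tsc22d3 (0.975), Rack1 to Foxo3 (0.975), Rmnd5a to Btg1 (0.971), Atp2c1 to Pik3ip1 (0.964) and Bmp2k to Foxp1 (0.947). Foxo1 also had Ncor1 and Pik3ca, the catalytic PI3K subunit alpha, at 0.974. With 9 points and many genes to choose from, high values are found for any gene, and these are descriptions only.

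The genes known to act downstream of FOXO factors and KLF2 moved in part with them. Of 21 tested target genes, 13 were called lower and 4 higher after 6 h of anti-CD40, against 13.3% and 16.6% of all genes. At 24 h 7 were lower and 2 higher, against 7.85% and 18.9%. S1pr1, the receptor for sphingosine 1-phosphate that KLF2 activates in lymphocytes, was at 123, 104 and 89.9 TPM in naive cells and 4.87, 3.48 and 2.59 TPM after 6 h, a log2 difference of -4.54 ± 0.27 (adjusted p = 2.54e-11). Itgb7, an integrin subunit of gut homing, was at 18.4, 36.8 and 39.8 TPM in naive cells and was listed at 0 in all 3 libraries with anti-CD40 at 6 h. The pro-apoptotic FOXO targets Bbc3 and Bcl2l11 were called higher at 6 h instead, by 2.61 ± 0.53 and 1.52 ± 0.23.

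With IL-4 at 24 h 15 of the 21 targets were called lower than with anti-CD40 alone and none higher, against 23.1% and 8.28% of all genes, with a median of -1.21 on the log2 scale against -0.31. When IL-21 was added to anti-CD40 and IL-4, 8 were called higher and 1 lower, against 21.8% and 2.39% of all genes, with a median of 0.48 on the log2 scale against 0.38 for all genes. Without replicate 1, 2 or 3 of the IL-4 group 13, 5 and 6 were called higher, where 41.2%, 7.76% and 6.53% of all genes were. S1pr1 rose from 4.14, 1.99 and 1.39 TPM to 10.9, 9.68 and 10.2 TPM, by 1.76 ± 0.27 (adjusted p = 7.38e-05), and by 1.52 to 2.07 with each IL-4 library left out, called each time. The groups did not overlap, and S1pr1 was not called different from anti-CD40 alone when both cytokines were present, at 0.35 ± 0.27. Bcl2l11 rose by 2.42 ± 0.23, and Sesn1, a stress-induced inhibitor of mTORC1, fell by 1.5 ± 0.15. S1pr1 did not follow Klf2 in every comparison. The 24 h effect of IL-4 on S1pr1 was -1.41 ± 0.27 (adjusted p = 0.000431). For Klf2 it was -0.45 ± 0.32, not called. Without IL-4, the 6 h effect of IL-21 on S1pr1 was 1.06 ± 0.27 (adjusted p = 0.0102). For Klf2 it was -0.76 ± 0.32, not called. The matching 24 h values were -0.11 ± 0.27 for S1pr1 and 0.82 ± 0.32 for Klf2, neither called.

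With anti-CD40 and without IL-4, IL-21 at 24 h raised 3 of 21 targets and lowered 3, shares of 14.3% each against 17.8% and 6.33% of all genes. Ccr7, the chemokine receptor for entry into T cell zones, was at 41.5, 35.3 and 45.1 TPM with anti-CD40 and 6.94, 5.37 and 5.39 TPM with IL-21 added, a log2 difference of -2.59 ± 0.51 (adjusted p = 0.000721). With IL-4 added in place of IL-21 Ccr7 was at 17.0, 6.26 and 4.16 TPM, a log2 difference of -2.24 ± 0.51 (adjusted p = 0.00218). With both cytokines Ccr7 was at 4.77, 4.73 and 3.94 TPM. Its difference from anti-CD40 with IL-4 was -0.68 ± 0.51, not called (adjusted p = 0.339), whereas Klf2 and S1pr1 were higher there. Sesn1 fell by 2.63 ± 0.15 and Cited2, a FOXO-induced transcriptional co-regulator, rose by 2.24 ± 0.32.

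**Figure D4:**
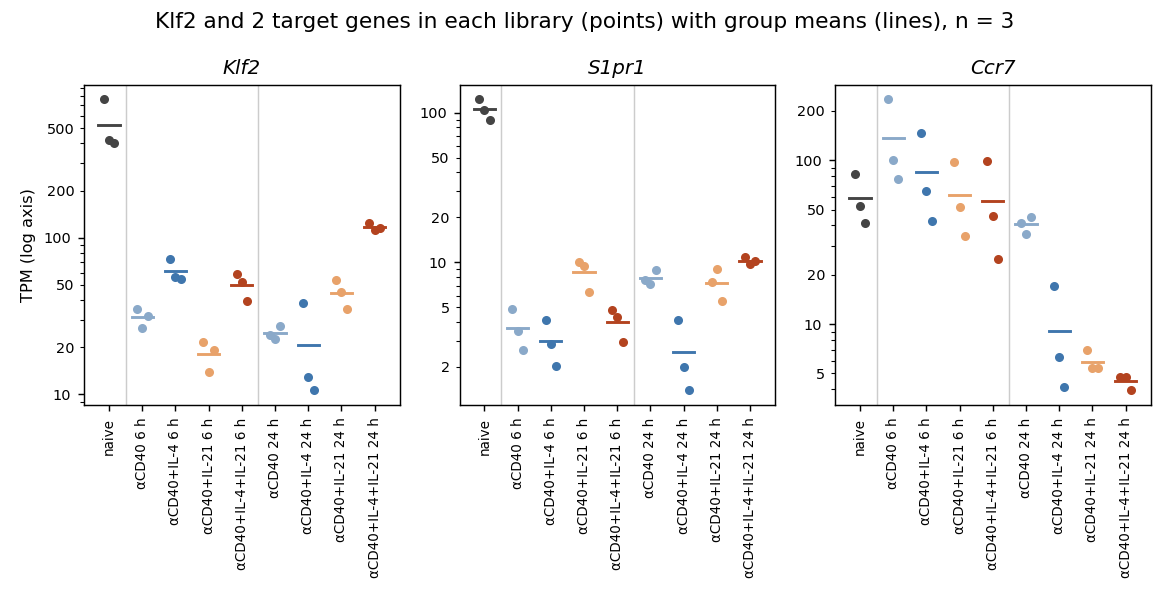
TPM on a log axis for Klf2, S1pr1 and Ccr7 in every library, with 3 points and a mean line per group. At 24 h Klf2 and S1pr1 are higher with both cytokines than with IL-4 alone in every library, whereas Ccr7 is under 7 TPM in every 24 h library with IL-21. With anti-CD40 plus IL-4 at 24 h Ccr7 is at 17.0, 6.26 and 4.16 TPM.

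The kinase pathway that restrains FOXO factors and the other listed genes of quiescence moved in the same comparisons. Of 22 tested genes of PI3K, AKT and mTOR signalling, 14 were called higher and 2 lower when IL-21 was added to anti-CD40 and IL-4 for 24 h, against 21.8% and 2.39% of all genes, with a median of 1.02 on the log2 scale against 0.38. With IL-4 added to anti-CD40 at 24 h 13 of the 22 had been called lower and none higher, against 23.1% and 8.28% of all genes. The count of 14 higher was 15, 7 and 7 without replicate 1, 2 or 3 of the IL-4 group, where 41.2%, 7.76% and 6.53% of all genes were higher. After rescaling it was 9, where 10.1% of all genes were higher. The 14 included both the leukocyte catalytic subunits Pik3cd (2.00 ± 0.34) and Pik3cg (1.86 ± 0.30) and the mTORC1 inhibitor Ddit4 (1.56 ± 0.29). Inpp4b, a phosphatase that ends PI3K signals, fell by 0.82 ± 0.23. With IL-21 added to anti-CD40 alone, 2 of the 22 were higher and 2 lower, 9.09% each against 17.8% and 6.33% of all genes.

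Of 17 other genes of lymphocyte quiescence, 10 were called higher and 1 lower with IL-21 added to anti-CD40 and IL-4 at 24 h, against 21.8% and 2.39% of all genes, and 12 lower and 1 higher with IL-4 added to anti-CD40, against 23.1% and 8.28%. The 10 became 11, 8 and 7 without replicate 1, 2 or 3 of the IL-4 group, where 41.2%, 7.76% and 6.53% of all genes were called higher. Cdkn2d, an inhibitor of CDK4 and CDK6, rose by 4.18 ± 0.23, Runx1 by 3.49 ± 0.37 and Bach2, a repressor that holds B cells from plasma cell fate, by 2.83 ± 0.28, and Pdcd4, an inhibitor of translation, fell by 2.32 ± 0.54. The same 4 genes moved in the same direction with IL-21 added to anti-CD40 alone, by 3.26, 2.88, 1.70 and -3.57, where 5 of the 17 were higher and 3 lower, against 17.8% and 6.33% of all genes. Of 19 relatives and partners of the 10 genes, 9 were called higher with IL-21 added to anti-CD40 and IL-4 at 24 h, among them Klf13 (2.10 ± 0.27), against 21.8% of all genes. Without replicate 2 or 3 of the IL-4 group or after rescaling 3 were, where 7.76%, 6.53% and 10.1% of all genes were. Klf4 and Klf6, KLF factors like Klf2, fell by 2.74 ± 0.17 and 2.40 ± 0.18 with 6 h of anti-CD40. Of 10 glucocorticoid response genes, a list chosen for Tsc22d3, 4 were called lower at 6 h of anti-CD40, against 13.3% of all genes, among them Dusp1 (-3.15 ± 0.23), and 4 higher with IL-21 added to anti-CD40 and IL-4 at 24 h, against 21.8%, among them Fkbp5 (2.48 ± 0.55). Tsc22d3 itself was not called there, at 0.90 ± 0.36 (adjusted p = 0.0737).

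Proliferation markers were high in all 3 cytokine groups at 24 h, those with high and with low levels of Foxo1 alike. The summed level of 12 markers was 222 to 271 TPM in naive cells, 380 to 475 TPM with anti-CD40 at 24 h, 913 to 1146 TPM with IL-4, 1311 to 1500 TPM with IL-21 and 1083 to 1124 TPM with both. With IL-21 added to anti-CD40, 11 of 12 were called higher, among them Plk1 (3.07 ± 0.41), against 17.8% of all genes. With IL-21 added to anti-CD40 and IL-4, 4 of 12 were, against 21.8% of all genes. Without replicate 1, 2 or 3 of the IL-4 group 8, 2 and 1 were, where 41.2%, 7.76% and 6.53% of all genes were. The summed level of 9 T cell markers was 60.8 to 73.4 TPM with both cytokines and 14.2 to 48.0 TPM with IL-4 at 24 h, almost all of it Thy1 with means of 65.7 and 24.8 TPM, while Cd3e, Cd3d and Cd3g, which define T cells, had means under 1 TPM in every group. Trac, the T cell receptor alpha constant gene, was called higher in the same comparison, by 0.91 ± 0.28 (adjusted p = 0.0233), at means of 1.75 against 0.401 TPM, and with IL-21 added to anti-CD40 at 6 h, by 1.11 ± 0.28 (adjusted p = 0.00916), at 4.19 against 1.38 TPM. The part of T cells in the differences was not tested.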

How the data were processed

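Salmon 1.9.0 was used with the GRCm38/mm10 build, per the submitters' processing notes; how transcripts were summed to genes and whether counting used strand are not given in the sources used here. The authors deposited 1 table of TPM values for 35604 genes in 27 libraries, each mapped to a sample by its column name. The listed TPM sum to 766384 to 825365 per library, TPM keep no read depth, and no 2 libraries were identical. Symbols and positions came from GENCODE M21 on GRCm38 (35301 genes named), and promoters from RefSeq on GRCm38.p6. Annotated genes on the opposite strand overlap Foxo1, Txnip and Pik3ip1, and others on the same strand overlap Foxo1 and Foxp1, and their reads cannot be told apart without knowing the strand setting.

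For this report, values were taken to log2(TPM + 1), genes at 1 TPM or more in at least 3 libraries were kept (12147), and 1 model over the 9 groups, with 18 residual degrees of freedom, was fitted with limma 3.58.1 in R 4.3.3, with a variance trend and Benjamini-Hochberg adjustment within each of 23 comparisons. The steps were tested on simulated data. Genes were called at an adjusted p under 0.05. A gene was lost when called lower with anti-CD40 than in naive cells, and regained when also called higher with IL-21 at that time. Of other genes, the text names the 3 closest in pattern to each of the 10 or the first of these, and up to 3 called genes per list and direction. S1pr1, Itgb7 and Ccr7 were chosen for values per library after their results were seen, and 1 gene of the target list is counted with it but not reported here. The 10 genes and all lists were chosen with earlier results of these data known. Alternatives were leaving out each library in turn, the replicate number as a block, fitting without the trend, rescaling by median of ratios, filtering at 5 TPM or not at all, and adding 0.1 in place of 1 before the logarithm. Added after the data were seen were leaving out both replicate 1 libraries with low mitochondrial shares, leaving out mitochondrial, ribosomal protein and pseudogene transcripts, 4 of the comparisons, and the gene lists and the rule for regained genes under these settings. Replicate numbers were taken as pairing libraries where every pair's deviations from the group means correlated above 0.1. This held for IL-4 added to anti-CD40 at 6 h (0.107 to 0.382), for IL-21 added at 6 h without IL-4 (0.186 to 0.335) and with it (0.183 to 0.377), and for anti-CD40 with IL-4 against naive cells at 24 h (0.108 to 0.407).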

Additional observations from a re-analysis of the deposited data

Results flagged for a closer look

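Differences of the IL-21 effect between contexts were past the threshold of their own test (limma, adjusted p under 0.05) for 6 of the 10 genes at 24 h. The effect of IL-21 on the log2 scale was more positive with IL-4 than without it by 2.80 for Pik3ip1, 2.28 for Btg1, 2.16 for Btg2, 1.99 for Txnip, 1.97 for Tsc22d3 and 1.85 for Klf2. All 6 had the same sign with each library left out in turn, and Klf2 and Tsc22d3 lost the call in some of those fits. Btg1, Txnip and Tsc22d3 were each called lower when either cytokine alone was added to anti-CD40, and IL-21 added to IL-4 was not called for them. Their means with IL-4, with IL-21 and with both were 59.3, 46.0 and 55.1 TPM for Btg1 and 6.37, 9.52 and 8.69 TPM for Txnip. For Tsc22d3 they were 0.666, 1.01 and 2.14 TPM, near the lowest levels.

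Differences between times were past the threshold of their own test for 3 genes. From 6 h to 24 h the IL-21 effect with anti-CD40 and IL-4 changed by 2.96 for Klf2 and by 1.94 for Pik3ip1. With anti-CD40 alone it changed by -1.97 for Btg1 and by 1.58 for Klf2. The Klf2 change with anti-CD40 alone lay at the threshold, with an adjusted p between 0.00262 and 0.138 over the libraries left out.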

How the results depend on the processing

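The depth behind each value is unknown, and 3 libraries per group limit what can be called. The losses from naive cells kept their counts within 1.5 times under every alternative. Leaving out 1 library in turn gave 6 to 9 genes called for anti-CD40 at 6 h (8 with all libraries) and 6 to 9 at 24 h (7), 7 to 8 and 10 to 10 with IL-4 at 6 h and 24 h (8 and 10), 7 to 8 and 7 to 9 with IL-21 (8 and 9), and 8 to 8 and 8 to 9 with both (8 and 8). For IL-21 added to anti-CD40 it gave 0 to 3 at 6 h (0) and 2 to 7 at 24 h (3), for IL-21 added to anti-CD40 and IL-4 0 to 2 (0) and 4 to 9 (5), for IL-4 0 to 1 (0) and 7 to 10 (9), and for the interaction 0 to 0 (0) and 4 to 10 (6). It gave 0 to 3 for anti-CD40 at 24 h against 6 h (1), 1 to 4 and 1 to 7 for the change of the IL-21 effect with time without and with IL-4 (2 and 2), 0 to 2 and 5 to 7 for both cytokines against anti-CD40 (1 and 5), and 0 to 1 and 1 to 2 against anti-CD40 with IL-21 (1 and 1). The highest count in the 24 h comparisons of IL-21, IL-4 and their interaction came without replicate 1 of anti-CD40 with IL-4.

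Median-of-ratios rescaling, leaving out both low-mitochondrial replicate 1 libraries, and leaving out mitochondrial, ribosomal protein and pseudogene transcripts gave 3, 4 and 3 genes for IL-21 added to anti-CD40 at 6 h, 5, 7 and 5 at 24 h, 2, 2 and 1 for IL-21 added to anti-CD40 and IL-4 at 6 h, 1, 1 and 1 for IL-4 at 6 h, 3, 3 and 2 for anti-CD40 at 24 h against 6 h, and 5, 4 and 4 for the change with time without IL-4. Without both replicate 1 libraries there were also 9 genes for IL-21 added to anti-CD40 and IL-4 at 24 h, 10 for the interaction, 7 for its change with time, 2 and 8 for both cytokines against anti-CD40 at 6 h and 24 h, and 2 against anti-CD40 with IL-21 at 24 h, where rescaling also gave 2. A pseudocount of 0.1, no filter and no variance trend each left 1 gene for the change with time without IL-4, and the first 2 left 1 for that with IL-4. The filter at 5 TPM gave 2 for anti-CD40 at 24 h against 6 h. Among single genes only Btg1, with IL-21 added to anti-CD40 and IL-4 at 24 h, changed sign with a call, to -0.49 under rescaling. The cause was not tested for any of these.

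The replicate block, in the comparisons the numbers pair, changed 1 call, that of Klf2 with IL-4 at 6 h (0 genes to 1), and no other. In unpaired comparisons it gave 2 genes for anti-CD40 at 24 h against 6 h and 2 for both cytokines against anti-CD40 with IL-21 at 24 h. With the block Klf2 was also called higher with IL-21 added to anti-CD40 at 24 h, and met the rule for regained there. Of 27 libraries 23 correlated best with their own replicate number.

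Counts over all genes moved by over 1.5 times as well: for IL-21 added to anti-CD40 and IL-4 at 24 h from 2941 to 5890 (959 without replicate 3 of anti-CD40 with IL-4 and 5632 without its replicate 1) and for the interaction at 24 h from 705 to 3023 without both replicate 1 libraries, and for the interaction to 1357 under rescaling and 1210 without the 3 transcript classes.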

Other observations

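Some target genes of FOXO and KLF2 moved with the cytokines at 6 h. Il7r, the interleukin-7 receptor chain that FOXO1 drives in T cells and early B cells, was higher with IL-21 added to anti-CD40 by 2.02 ± 0.16 on the log2 scale (limma, adjusted p = 1.34e-08) and with IL-4 by 1.55 ± 0.16 (adjusted p = 1.25e-06). At 24 h it was not called with either, at 0.15 ± 0.16 and -0.08 ± 0.16. Bcl2l11, which encodes the pro-apoptotic BIM, was higher with IL-21 at 6 h by 1.77 ± 0.23 without IL-4 and by 2.53 ± 0.23 with it. Sesn1 was lower by 2.44 and 1.64 on the log2 scale in the same comparisons, and lower by 1.42 with IL-4.

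Zfp36, which encodes an mRNA decay factor of resting cells, fell by 3.13 ± 0.32 with anti-CD40 at 6 h. It was higher with IL-21 in all 4 contexts, by 2.07 at 6 h and 0.96 at 24 h without IL-4 and by 1.30 and 2.00 with it. The proliferation marker Mcm3 fell by 3.66 ± 0.60 with anti-CD40 at 24 h, while Mcm2 and Mcm5 rose by 1.36 ± 0.32 and 1.66 ± 0.28.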
